A study of Mus musculus with 15 samples.

Results

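The genes described here are 10 components of the circadian clock, measured in the hippocampus of mice during the extinction of contextual fear. Every non-control spot whose gene name on the array was Dbp, Per1, Per2, Per3, Cry1, Cry2, Arntl, Clock, Nr1d1 or Nr1d2 was taken. This gave 18 of the 41174 probes and 10 of the 26117 genes tested. All 18 probes passed the filter on dim probes and were well above background on all 15 arrays, and none was saturated.

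RNA came from male mice of the inbred strain C57BL/6J, with 1 single-colour Agilent array per hippocampal sample and 5 samples in each of 3 groups, which the labels call biological replicates. E1 mice had been placed in a box, given a foot-shock there, and sampled 1 h after the first return to that box without shock. ELF mice had gone through such returns at 24 h intervals and were sampled 1 h after trial 5, the trial at which freezing had dropped. Control mice received no shock. The design text says that they were exposed to the box, whereas the sample names call them naive. Neither description gives how long before sampling a control mouse was last handled, and the labels and the design text used here do not give the hour of day at which any group was sampled. The hippocampus was measured in bulk, so fewer cells of a type and less RNA per cell cannot be told apart.

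The clock is a feedback loop of transcription that runs in most cells of the body. CLOCK and ARNTL (also called BMAL1) bind E-box elements as a dimer and switch on the Per and Cry genes, whose protein products enter the nucleus and repress the dimer. In a connected loop the nuclear receptors NR1D1 and NR1D2 (REV-ERB alpha and beta) repress Arntl, and the ROR receptors activate it. DBP is an output of the loop, a transcription factor that binds D-box elements and whose mRNA cycles with a large amplitude in many tissues. Per1 and, in many settings, Per2 are also induced acutely by stimuli such as neuronal activity and glucocorticoid hormone, apart from their daily rhythm.

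The elements through which these factors act were searched for in the 250 bases before each annotated start site, on both strands, in RefSeq sequence of mouse build GRCm38.p6. Windows were found for 9 of the 10 genes. The E-box was searched as CACGTG, its variant the E-prime box as CACGTT, the D-box as TTANGTAA, the core of the ROR element as TAGGTCA and the cyclic AMP response element as TGACGTCA. Of 32851 windows of this length, 6.02% held the E-box, 3.85% the E-prime box, 2.06% the D-box, 2.23% the ROR core and 1.55% the cyclic AMP element. The windows below are those of Dbp, Per1, Cry1, Per3 and Ciart, with window 1 of 2 shown for Per1. Dbp and Per1 were the members with the lowest unadjusted p in E1, and Cry1 had the most negative difference there. Per3 held the D-box, and Ciart is a CLOCK and ARNTL repressor from the wider pathway. The windows are written 5' to 3' on the strand of the gene, with matches in capitals.
Dbp, chr7:45704997-45705246, plus strand: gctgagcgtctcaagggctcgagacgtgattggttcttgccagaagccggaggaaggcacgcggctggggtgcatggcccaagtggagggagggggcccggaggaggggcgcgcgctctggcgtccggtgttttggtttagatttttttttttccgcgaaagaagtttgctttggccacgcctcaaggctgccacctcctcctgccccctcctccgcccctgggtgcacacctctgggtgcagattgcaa
Per1, chr11:69098699-69098948, plus strand: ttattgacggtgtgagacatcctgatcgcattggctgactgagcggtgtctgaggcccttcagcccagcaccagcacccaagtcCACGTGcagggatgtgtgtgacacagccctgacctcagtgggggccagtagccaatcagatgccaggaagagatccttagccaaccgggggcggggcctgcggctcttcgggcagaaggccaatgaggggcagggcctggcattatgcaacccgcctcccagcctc
Per3, chr4:151044666-151044915, minus strand: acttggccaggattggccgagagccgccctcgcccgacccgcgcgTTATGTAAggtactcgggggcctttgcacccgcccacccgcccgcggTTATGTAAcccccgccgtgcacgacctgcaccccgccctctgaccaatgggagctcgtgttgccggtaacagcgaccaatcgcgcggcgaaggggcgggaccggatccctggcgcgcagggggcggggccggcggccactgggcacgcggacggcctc
Cry1, chr10:85185055-85185304, minus strand: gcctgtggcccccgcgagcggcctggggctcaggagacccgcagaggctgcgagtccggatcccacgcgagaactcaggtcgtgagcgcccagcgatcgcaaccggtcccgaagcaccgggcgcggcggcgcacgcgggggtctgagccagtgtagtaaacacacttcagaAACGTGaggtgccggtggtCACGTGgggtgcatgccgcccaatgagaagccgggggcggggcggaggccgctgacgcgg
Ciart, chr3:95882229-95882478, minus strand: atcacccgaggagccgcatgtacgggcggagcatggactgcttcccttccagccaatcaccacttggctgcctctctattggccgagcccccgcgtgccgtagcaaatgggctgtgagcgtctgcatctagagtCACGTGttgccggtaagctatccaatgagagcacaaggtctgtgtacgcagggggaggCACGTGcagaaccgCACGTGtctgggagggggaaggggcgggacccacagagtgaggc
Per1 had 2 windows. The one shown held 1 E-box, 166 bases before the start, and the other held none of the 5 letter strings. Per3 held 2 D-box matches, at 205 and 158 bases. Cry1 held an E-box at 60 bases and an E-prime box at 79 bases, and Ciart held 3 E-boxes, at 116, 58 and 44 bases. Cry2 and Nr1d1 each held 1 E-prime box, at 166 and 28 bases. No window of Dbp, Arntl, Clock or Nr1d2 held any of the 5 letter strings, which says only that these letters are not in these windows.

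Levels are given as log2 of the processed spot intensity minus the 75th percentile of the same array, so that 0 is the brightness of a spot at that percentile and a difference of 1 is a doubling. Levels of different genes are not comparable on this scale, because each probe has its own brightness. Where a gene had several probes, the brightest stands for it and the others are described later. Groups were compared with limma over all 26117 genes with Benjamini-Hochberg adjustment, and "called" means an adjusted p under 0.05.

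The output gene Dbp was the member that rose after the first extinction trial. Its probe lies on chromosome 7 from 41886169 to 41886228 on the plus strand (this and the other probe positions are in build mm7, as the files give them). The 5 control arrays read 2.89, 3.11, 2.69, 2.85 and 2.95. The 5 E1 arrays read 3.96, 3.50, 3.79, 3.80 and 4.03, all above every control array. Mean levels were 2.90 ± 0.15 in control and 3.82 ± 0.21 in E1 (SD, n = 5 each), a difference of 0.92 with a standard error of 0.16 (95% interval 0.58 to 1.25), or 1.89-fold. limma gave an adjusted p of 0.0351, the 29th lowest p of all genes. Among the 10 members, 1 was called in E1 against control, beside 0.188% of all genes.

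The call of Dbp depended on how the slides and the spread were handled, although its difference stayed between 0.77 and 1.00 in all 23 settings tried. Of the 5 ELF arrays, 3 were on a slide of their own and 2 shared a slide with 2 E1 arrays. No slide held both control and ELF arrays. Of the 5 control arrays, 4 were on a slide of their own, and the fifth shared a slide with 3 E1 arrays. On that shared slide Dbp was higher in all 3 E1 arrays than in the control array, by 0.81 on average, whereas the median over all genes there was -0.04. With the slide as a random block limma's adjusted p was 0.686, and with it as a fixed block it was 1.00. In that order, these settings called 0% and 0.0115% of all genes. Same-numbered control and E1 arrays deviated together weakly (correlations of 0.15 to 0.34). With the replicate number as a block limma's adjusted p was 0.0601, in a fit that called 0.0345% of all genes. It was 0.0152 when only those groups entered the fit, a setting that called 12.3% of all genes. Leaving out 1 array at a time kept Dbp called in 2 of 10 fits. These were the fits without control 5 (adjusted p 0.00811) and without E1 2 (0.0299), which called 4.28% and 0.157% of all genes. The highest adjusted p of these fits, 0.134, came without control 3, where 0.0459% of all genes were called.

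**Figure D1:**
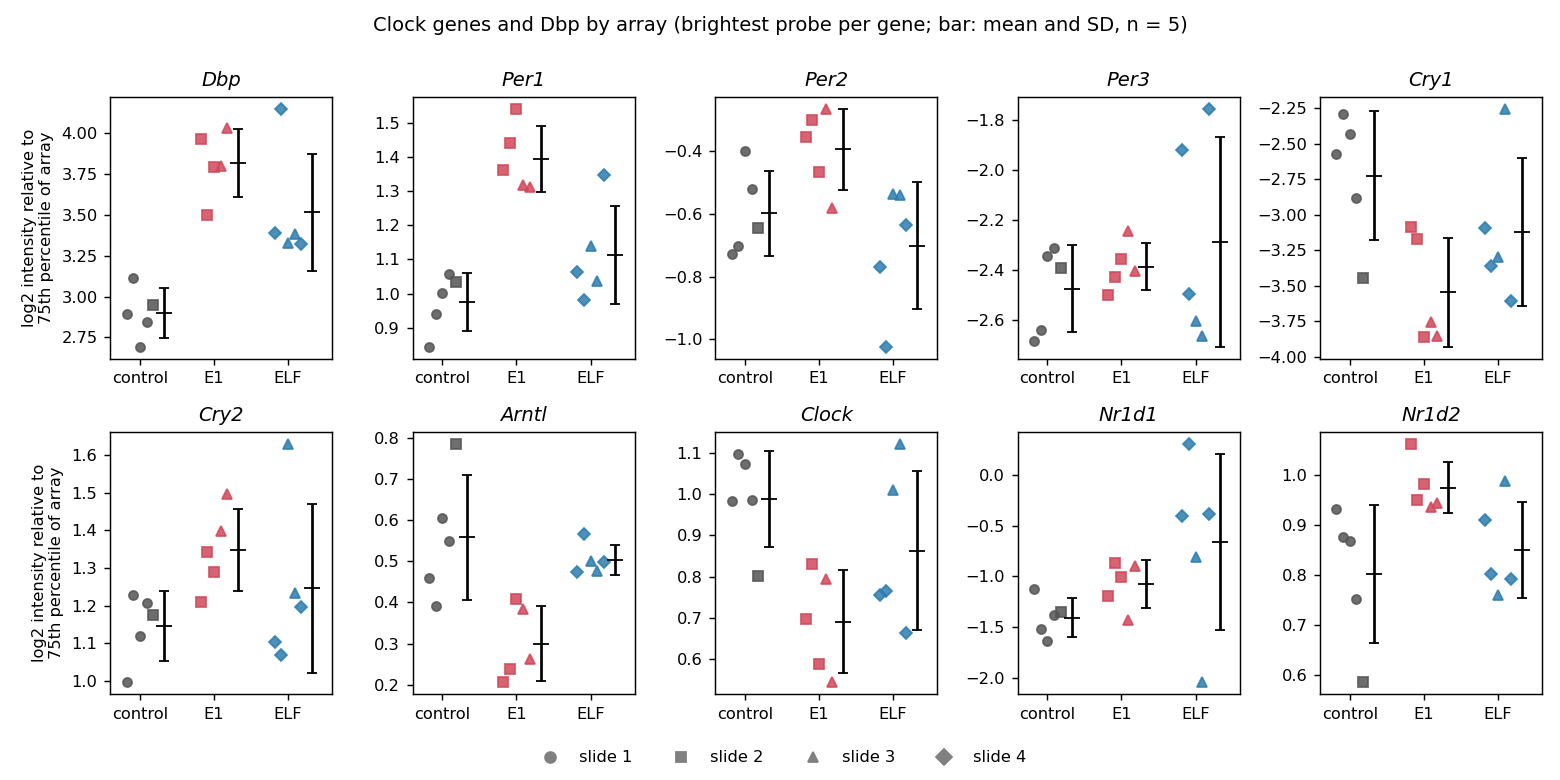
Level of each of the 10 clock genes on each of the 15 arrays, as log2 intensity relative to the array's 75th percentile, with the group mean as a line and the SD as an error bar (n = 5 per group). The E1 points of Dbp, Per1 and, narrowly, Nr1d2 all sit above their control points, and ELF 2 is the highest point for Dbp, at 4.15.

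In ELF the Dbp arrays read 3.39, 4.15, 3.33, 3.38 and 3.32, again all above every control array. The mean was 3.51 ± 0.36, and the array ELF 2 stood alone above the other 4. The difference from control was 0.62 with a standard error of 0.16 (1.53-fold), and limma's adjusted p of 0.0538 missed the threshold. With the slide as a fixed block the difference was 0.25 (0.722) and with it as a random block 0.49 (1.00), in fits that called 0.318% and 0% of all genes. Without ELF 2 the difference was 0.46 (adjusted p 0.0628), where 0.789% of all genes were called. Dbp was called without control 5 (0.0416) and without ELF 4 (0.0237), in fits that called 8.08% and 19.8% of all genes. From E1 to ELF the difference was -0.30 (95% interval -0.64 to 0.03, adjusted p 0.551). It was -0.46 without ELF 2 (adjusted p 0.292) and -0.56 with the slide as a fixed block (0.135). The E1 and ELF comparisons share the same 5 control arrays.

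The tissue label and the cell types that a dissection could carry along were checked with marker genes. All 10 hippocampal neuron markers were well above background on all 15 arrays, and limma called none of them in any comparison. Endothelial markers moved with the groups. Of 11, 2 fell in E1 (Cldn5 and Kdr) and 6 in ELF, where 0.188% and 2.15% of all genes were called. Their summed level, in units of the array's 75th percentile, was 14.5 to 26.2 in control, 10.4 to 13.9 in E1 and 10.1 to 13.0 in ELF, so that both trial groups lay below control. The summed level of 10 choroid plexus markers was 70.9 to 93.9 in control, 66.1 to 81.9 in E1 and 53.5 to 63.7 on 4 ELF arrays, with ELF 3 at 9.09. limma called none of the 10. In ELF against control 7 of them had an unadjusted p under 0.05, beside 23% of all genes. Of 9 thalamus and habenula markers 1, Ramp3, rose in E1, beside 0.188% of all genes called. Their sums were 8.82 to 15.02, 8.43 to 11.8 and 7.71 to 11.0. No marker measured was at background on any array. limma called none of the oligodendrocyte, astrocyte, microglia or meningeal markers, whose summed levels overlapped between the groups. The part of these cell types in the clock gene differences was not tested. Cldn5, Kdr and Ramp3, and below Timeless, Csnk1d, Rgs16 and Ddit4, are named after their values were seen.

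Among the Per genes, which encode repressors of CLOCK and ARNTL, Per1 separated E1 from control most clearly. Its probe lies on chromosome 11 from 69190950 to 69191009 on the plus strand. Control arrays read 0.84, 0.94, 1.00, 1.06 and 1.03, and E1 arrays read 1.36, 1.44, 1.54, 1.32 and 1.31. The lowest E1 array was thus above the highest control array. The difference was 0.42 with a standard error of 0.08 (1.34-fold), and limma's adjusted p of 0.0554 missed the threshold. Per1 was called without control 5 (0.0164), with quantile normalization (0.0331), with an intensity trend in the variance (0.0318) and in the fit of control and E1 alone with the replicate block (0.0211). In that order, these settings called 4.28%, 1.74%, 0.319% and 12.3% of all genes. On the slide that held both groups, its 3 E1 arrays averaged 0.41 above the control array.

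In ELF the Per1 arrays read 1.06, 0.98, 1.14, 1.04 and 1.35. They overlapped the control range, and 1 of them, ELF 5, lay within the E1 range. The difference from control was 0.14 (standard error 0.08, adjusted p 0.336). Against E1 it was -0.28 (standard error 0.08), with an unadjusted p of 0.00457 and a limma adjusted p of 0.349.

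Per2, probed on chromosome 1 from 91323914 to 91323973 on the minus strand, read -0.73, -0.70, -0.40, -0.52 and -0.64 in control. It read -0.35, -0.30, -0.47, -0.26 and -0.58 in E1, and -0.77, -1.02, -0.54, -0.54 and -0.64 in ELF. The E1 arrays lay towards the upper end and overlapped both other groups, and ELF 2 was the lowest of all 15. The differences were 0.21 for E1 against control (limma adjusted p 0.440), -0.10 for ELF against control (0.580) and -0.31 for ELF against E1 (unadjusted p 0.0121, adjusted 0.413).

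Per3, probed on chromosome 4 from 149994689 to 149994748 on the minus strand, ranged from -2.68 to -2.32 in control, from -2.50 to -2.24 in E1 and from -2.66 to -1.76 in ELF. The ELF arrays fell apart, with ELF 1 at -1.92 and ELF 5 at -1.76, and the other 3 between -2.66 and -2.50. No Per3 difference passed the test. It was 0.09 in E1 and 0.19 in ELF against control (limma adjusted p 0.872 and 0.507), and that of E1 was -0.0051 with normexp background correction.

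The Cry genes encode the PER proteins' partners in repression. Cry1, probed on chromosome 10 from 84673350 to 84673409 on the minus strand, read -2.57, -2.29, -2.43, -2.88 and -3.44 in control. It read -3.09, -3.17, -3.86, -3.75 and -3.86 in E1, and -3.09, -3.36, -3.30, -2.25 and -3.61 in ELF. Control 5, which shared its slide with 3 E1 arrays, was the lowest control array and the only one inside the E1 range. E1 differed from control by -0.82 (standard error 0.27, limma adjusted p 0.198). Without control 5 the difference was -1.0 (0.0465, called), in a fit that called 4.28% of all genes. It was 0.07 on the shared slide and in the fit with the slide as a fixed block. In ELF the difference from control was -0.40 (adjusted p 0.389), and it was 1.10 with the slide as a fixed block and 0.12 with it as a random block.

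Cry2, probed on chromosome 2 from 92254922 to 92254981 on the minus strand, ranged from 1.00 to 1.23 in control, from 1.21 to 1.497 in E1 and from 1.07 to 1.63 in ELF. All 3 groups overlapped. The differences from control were 0.20 in E1 (limma adjusted p 0.434) and 0.10 in ELF (0.572), and that of ELF was -0.00032 when arrays were shifted by their medians.

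The activator genes Arntl and Clock lay lower in E1 than in control without passing the test. Arntl, probed on chromosome 7 from 109229489 to 109229548 on the plus strand, read 0.46, 0.39, 0.61, 0.55 and 0.79 in control, 0.21, 0.24, 0.41, 0.38 and 0.26 in E1, and 0.47, 0.57, 0.50, 0.48 and 0.50 in ELF. A single E1 array, at 0.41, reached into the control range, and the 5 ELF arrays lay within it and above all E1 arrays. The E1 difference from control was -0.26 (standard error 0.08, limma adjusted p 0.172), and -0.50 with the slide as a fixed block (1.00). ELF differed from control by -0.05 (0.701) and from E1 by 0.20 (unadjusted p 0.0243, adjusted 0.459).

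Clock, probed on chromosome 5 from 76144675 to 76144734 on the minus strand, read 0.98, 1.10, 1.07, 0.99 and 0.80 in control and 0.70, 0.83, 0.59, 0.79 and 0.54 in E1. The overlap came from control 5, the lowest control array. ELF arrays read 0.76, 0.76, 1.01, 1.12 and 0.66 and spanned both ranges. The differences from control were -0.30 in E1 (standard error 0.10, limma adjusted p 0.215) and -0.13 in ELF (0.470). With the slide as a fixed block that of E1 was -0.10 (1.00), and on the shared slide 1 of 3 E1 arrays lay above the control array. That of ELF was 0.30 and 0.02 with the slide as a fixed and a random block. From E1 to ELF the difference was 0.17 (adjusted p 0.613). With the slide as a fixed block it was 0.40 (0.0394), in a fit that called 19.6% of all genes.

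The receptor gene Nr1d1 varied widely in ELF, and the size of its ELF difference depended on the processing and on the probe. Its probe lies on chromosome 11 from 98884160 to 98884219 on the minus strand. It was the brightest of the gene only through its ELF arrays (mean -0.67, against -1.26 for probe 2). In control and E1 probe 2 was brighter, with means of -1.33 and -0.88 against -1.41 and -1.08. The choice of probe thus rests on the ELF values compared here, and the p-values do not allow for it. Control arrays read -1.13, -1.52, -1.64, -1.38 and -1.36, and E1 arrays read -1.19, -0.87, -1.005, -1.43 and -0.89. ELF arrays read -0.40, 0.31, -0.81, -2.04 and -0.38. Of these, 4 were above every control array, and ELF 4 was below every one. The values followed the slide. The 3 ELF arrays on a slide of their own averaged -0.16, and the 2 that shared a slide with E1 arrays averaged -1.43, beside a control mean of -1.41. No slide held both control and ELF arrays. The ELF difference was 0.74 with a standard error of 0.31 (95% interval 0.07 to 1.42, unadjusted p 0.0332, limma adjusted p 0.181). It was 0.06 with normexp background correction (0.726), 0.35 as the mean over its probes (0.276) and 0.07 with the slide as a fixed block (0.952). Without ELF 4 it was 1.09 and was called (adjusted p 0.00918), in a fit that called 19.8% of all genes. In E1 the difference from control was 0.33 (adjusted p 0.709), and 0.51 with normexp (0.0732). The normexp differences lay near those of probe 2 in the main processing, 0.46 in E1 and 0.07 in ELF. The brightest probe can differ between processings, so a change of probe and an effect of the correction are not told apart here.

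Nr1d2, probed on chromosome 14 from 16018965 to 16019024 on the minus strand, ranged from 0.59 to 0.93 in control and from 0.94 to 1.06 in E1, without overlap. The gap between the groups was narrow, and the difference was 0.17 (standard error 0.08, unadjusted p 0.0475, limma adjusted p 0.376). In ELF it ranged from 0.76 to 0.99 and differed from control by 0.05 (adjusted p 0.740), or by -0.05 when arrays were shifted by their medians and -0.04 in the authors' deposited values.

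**Figure D2:**
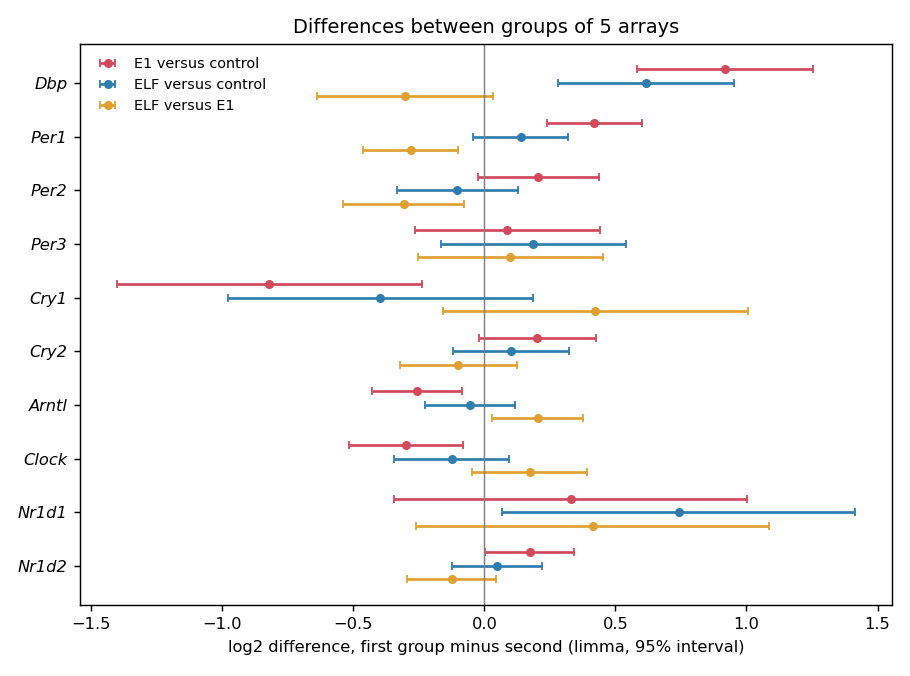
Difference in log2 level for each of the 10 clock genes in the 3 comparisons, with the 95% interval from limma as a bar. The interval of Dbp in E1 against control, 0.58 to 1.25, is the one of the gene that was called.

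Counted together, 6 of the 10 members had an unadjusted limma p under 0.05 in E1 against control, beside 13.1% of all genes. Dbp, Per1 and Nr1d2 were the 3 higher ones, and Cry1, Arntl and Clock the 3 lower ones. Cry1 was lower on its brightest probe only, and its other probe gave 0.10. The count was 4 with the median shift, 5 with the authors' deposited values, 6 with quantile normalization and 7 with normexp. In that order, 3363, 3945, 4313 and 3478 of the 26117 genes had such a p. Dbp, Per1 and Nr1d2 had E1 arrays that lay above all control arrays, beside 2.11% of all genes that were higher without overlap and 3.73% that did not overlap in either direction. The median difference of the members was 0.19, against 0.04 over all genes. In ELF against control, limma with Benjamini-Hochberg adjustment called 0 of 10 members, beside 2.15% of all genes. There 2 members, Dbp and Nr1d1, had an unadjusted p under 0.05, beside 23% of all genes, a share near the background. The Nr1d1 probe counted here was the brightest only through its ELF arrays, and probe 2 of Nr1d1 differed by 0.07. Dbp alone did not overlap, beside 4.75% of all genes (2.53% in the higher direction), and the median difference was 0.07, against 0.10 over all genes. One member, Dbp, was called there with quantile normalization, with the authors' deposited values, with an intensity trend and with a filter for all 15 arrays. In that order, these settings called 6.51%, 6.07%, 3.17% and 3.38% of all genes.

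In ELF against E1, limma called 0 of 10 members, beside 0.00766% of all genes. The 3 members with an unadjusted p under 0.05 were Per1 and Per2, which were lower in ELF, and Arntl, which was higher, beside 9.64% of all genes. Arntl alone did not overlap, beside 2.06% of all genes (1.1% in the higher direction). One member, Clock, was called there with the slide as a fixed block, where 19.6% of all genes were called, and none in the other settings tried. On the slide that held 2 E1 and 2 ELF arrays, ELF was lower by -0.56 for Dbp, -0.23 for Per1 and -0.12 for Per2 and higher by 0.17 for Arntl, beside a median of -0.18 over all genes.

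Probes of the same gene did not always move alike. Fitted probe by probe over 38457 probes, 12 of the 18 clock probes lay above 0 and 6 below in E1 against control. That of Dbp was called (adjusted p 0.0431), beside 0.104% of all probes. In ELF against control 10 lay above and 8 below 0, and in ELF against E1 9 lay on each side. limma called 0 of the 18 in both, beside 2.36% and 0.0052% of all probes, and 3 and 4 of the 18 had an unadjusted p under 0.05, beside 23.4% and 9.98% of all probes. In E1 against control 8 of the 18 did, beside 13.1%.

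Nr1d1 had 3 probes, and probe 2 gave a different order of the groups from the brightest probe and probe 3. Probe 2, from 98878251 to 98878753 on chromosome 11, read -1.39, -1.33, -1.46, -1.34 and -1.15 in control, -0.79, -1.05, -0.92, -0.96 and -0.66 in E1 and -1.34, -1.30, -1.39, -1.10 and -1.19 in ELF. On this probe all E1 arrays lay above all control and ELF arrays, and ELF lay with control. Its E1 difference from control was 0.46 (standard error 0.09, limma adjusted p 0.0647), its ELF difference 0.07, and ELF minus E1 was -0.39, whereas the brightest probe gave 0.33, 0.74 and 0.41. Probe 3, from 98881057 to 98881116 and without a value on control 4, where its spot was marked as an outlier, gave 0.41, 0.48 and 0.07.

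The dimmer probe of Cry1, from 84685114 to 84685173, differed from control by 0.10 in E1 and 0.13 in ELF, against -0.82 and -0.40 on the brightest probe. The dimmer probe of Per2, from 91347406 to 91347465, differed by 0.56 and 0.58, against 0.21 and -0.10. Cry2's dimmer probe gave 0.06 and -0.19, against 0.20 and 0.10. The 4 Clock probes were alike in sign, at -0.30, -0.18, -0.11 and -0.36 in E1 and -0.13, -0.19, -0.11 and -0.36 in ELF, and none was called. Which transcript forms each probe detects was not analysed here.

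**Figure D3:**
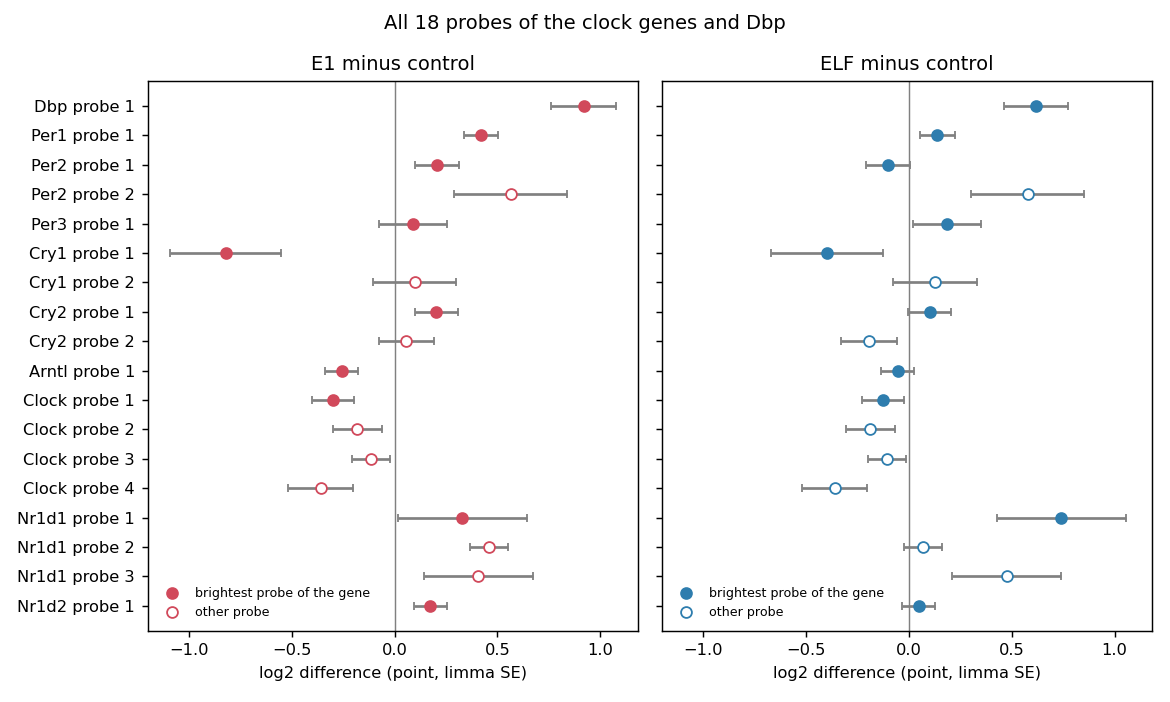
Difference from control in log2 level for each of the 18 probes of the 10 clock genes, in E1 and in ELF, with the standard error as a bar. The 3 probes of Nr1d1 lie between 0.33 and 0.46 in E1 and between 0.07 and 0.74 in ELF.

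Within groups, the arrays with more Dbp had less Per2 on its brightest probe. After the group means were subtracted, Dbp and Per2 correlated across the 15 arrays with Pearson's r = -0.81 (permutation p 0.00252, adjusted 0.0227 over the 9 other members) and Spearman's rho = -0.78 (permutation p 0.00155, adjusted 0.0139). The other 8 members had an adjusted permutation p of at least 0.670 for r, and how their r differs from that of Per2 was not tested. The array ELF 2 was the highest for Dbp and the lowest for Per2. Without ELF 2 and E1 2, the arrays farthest from the median of Dbp, r was -0.69, and without ELF 2 alone it was -0.63. Over all 15 arrays, with slide as well as group differences removed and no test run, r was -0.79 for Per2, -0.86 for Per3 (-0.31 with only group means subtracted) and -0.58 for Per1 (-0.51), so Per2 was not the lowest member there. The slides hold too few arrays for a value within each. Among 22433 genes well above background throughout, 185 (0.825%) had an r with Dbp as low as that of Per2. The dimmer Per2 probe did not show the relation. Its correlation with Dbp was r = 0.52 (permutation p 0.141) and rho = 0.37 (permutation p 0.213), with r = 0.23 without the 2 farthest arrays, and its correlation with the brightest Per2 probe was r = -0.65 (permutation p 0.0332) and rho = -0.51 (permutation p 0.0886), with r = -0.38 without the 2 farthest. These 2 relations were added after the first was seen and their p-values are not adjusted.

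**Figure D4:**
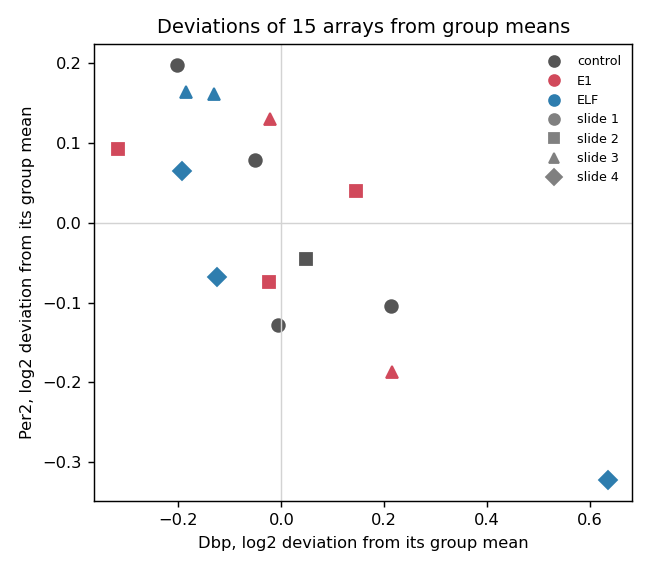
Deviation of Dbp from its group mean (x axis) against that of Per2 (y axis), both in log2 units, for each of the 15 arrays, marked by group. The points fall from upper left to lower right (r = -0.81), with ELF 2 at the far right.

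The gene names whose pattern was most like Dbp over the 15 arrays with group means subtracted were Npas1 (r = 0.92, rho = 0.86), AI842957 (0.92), an unnamed probe (0.90), Ube2v1 (0.90) and 2810002N01Rik (0.90). With group means kept they were AV065344 (0.94), Sertad1 (0.91), Sac3d1 (0.91), 3110024A21Rik (0.91) and Doc2a (0.91). None of the other 9 members was among these. Of the 22433 genes, 0.753% had an r of at least 0.8 with group means subtracted.

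Beyond the 10 members, 32 other clock pathway genes were measured, and limma called none of the 32 in any of the 3 comparisons. In E1 against control 3 were higher and 2 lower at an unadjusted p under 0.05, beside 9.07% and 4.04% of all genes, with a median difference of 0.06 against 0.04 over all genes. In ELF against control 4 were higher and 5 lower, beside 15.7% and 7.3% of all genes, and in ELF against E1 6 were higher and 6 lower, beside 5.64% and 4%. At most 3 of the 32 were called in the settings tried for E1 against control. That was the replicate block with only those groups, which called 12.3% of all genes. At most 3 were called for ELF against control, when 1 array was left out, and such fits called 0% to 19.8% of all genes. For ELF against E1 5 were called with the slide as a fixed block, where 19.6% of all genes were called, a share near that of the list.

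Of the partners and repressors at the E-box, 0 of 10 were called by limma in E1 against control, and 3 had an unadjusted p under 0.05, beside 13.1% of all genes, namely Ciart, Bhlhe40 and Timeless (-0.21, adjusted p 0.333). Ciart (on the array as Gm129), whose product represses CLOCK and ARNTL, read -1.80, -1.77, -1.999, -2.08 and -2.35 in control and -0.89, -1.25, -1.26, -1.70 and -1.37 in E1. All E1 arrays were above all control arrays, and the difference was 0.70 (standard error 0.19, adjusted p 0.115). In ELF it was 0.24 (0.463). Bhlhe40 (Bhlhb2), another E-box repressor, read 0.76, 1.17, 1.23, 1.00 and 1.25 in control and 1.49, 1.28, 1.58, 1.50 and 1.43 in E1, again without overlap, a difference of 0.38 (standard error 0.10, adjusted p 0.111). Its ELF difference was 0.09 (0.597). The related Bhlhe41 (Bhlhb3) differed by 0.24 in E1 (0.504) and 0.22 in ELF (0.367). Arntl2, a relative of Arntl named after its values were seen, had the lowest adjusted p of the 32 in ELF against control, with a difference of -0.69 (standard error 0.17, limma adjusted p 0.0516). Its control arrays ranged from -4.99 to -3.99 and its ELF arrays from -5.61 to -4.94, so the groups overlapped. Npas2, which can stand in for CLOCK, differed by 0.09 (0.747) and 0.0056 (0.978).

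The 6 factors at the D-box and the ROR element had 0 called members and 0 at an unadjusted limma p under 0.05 in E1 against control. Tef, a D-box activator related to Dbp, read 3.25, 3.37, 3.36, 3.34 and 3.35 in control, 3.29, 3.20, 3.097, 3.25 and 3.23 in E1 and 3.50, 3.45, 3.72, 3.68 and 3.31 in ELF. Its ELF arrays were all above its E1 arrays, with a difference of 0.32 (standard error 0.08, unadjusted p 0.00184, adjusted 0.282), and its E1 difference from control was -0.12 (0.565). Hlf, the other relative of Dbp, differed by 0.06 in E1 (0.868) and 0.0027 in ELF (0.990). Nfil3, which represses at the D-box, ranged from 0.33 to 0.70 in control and from 0.12 to 0.29 on 4 E1 arrays, with E1 5 at -2.08. It was lower in E1 without overlap, by -0.75 with a standard error of 0.36 (adjusted p 0.391). Without E1 5 the difference was -0.30 with a standard error of 0.11 (adjusted p 0.407). Nfil3 was 0.11 above control in ELF (0.870). Rora, an activator of Arntl, differed from control by 0.18 in E1 (0.682) and -0.45 in ELF (0.125), and ELF differed from E1 by -0.63 (unadjusted p 0.00151, adjusted 0.264). Rorb differed by 0.06 (0.837) and 0.08 (0.634).

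limma called 0 of the 8 clock output genes and 0 of the 8 kinases and ubiquitin ligases in any of the 3 comparisons. In E1 against control 1 gene of each list had an unadjusted p under 0.05, beside 13.1% of all genes, a share near that of each list. These were the output gene Rgs16, a regulator of G protein signalling, and the kinase gene Csnk1d (-0.26, adjusted p 0.324), whose product phosphorylates PER proteins. Rgs16 read -0.54, -0.49, -0.46, -0.57 and -0.49 in control, 0.32, -0.34, 0.37, 0.45 and 0.05 in E1 and -0.34, -0.07, -0.26, -0.30 and 0.18 in ELF. For Rgs16 both trial groups lay above all control arrays, by 0.68 in E1 (limma adjusted p 0.0613) and 0.35 in ELF (0.165). Rgs16 also stands in the list of thalamic markers. Usp2, an output gene named after its values were seen, had the lowest adjusted p of the 32 in ELF against E1. It differed there by -0.39 (standard error 0.09, limma adjusted p 0.264) without overlap, beside 2.06% of all genes without overlap. In E1 Usp2 was 0.17 above control (0.480), also without overlap, beside 3.73%.

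**Figure D5:**
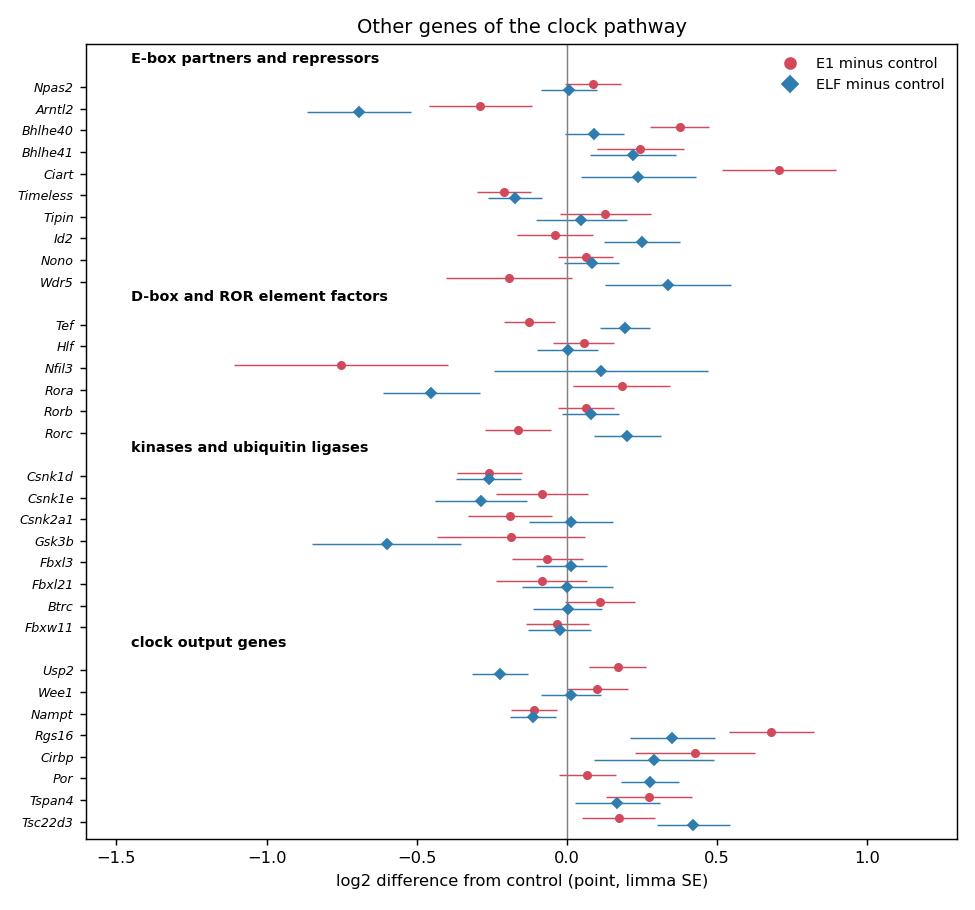
Difference from control in log2 level, in E1 and in ELF, for the 32 other clock pathway genes, grouped by list, with the standard error from limma as a bar. Ciart (0.70) and Rgs16 (0.68) lie farthest to the right in E1 and Nfil3 (-0.75, or -0.30 without the array E1 5) farthest to the left, and none of the 32 passed the limma threshold.

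Genes induced by neuronal activity and by glucocorticoid hormone are given beside the clock genes because both stimuli are known to act on Per1. Of 10 activity-induced genes, 7 rose in E1 (0.188% of all genes were called) and 1 in ELF (2.15%). In ELF against E1 limma called 0 of 10, beside 0.00766% of all genes, and 10 had an unadjusted p under 0.05, beside 9.64%. Fos, an immediate early transcription factor, was 1.47 higher in E1 (standard error 0.25, limma adjusted p 0.0351) and 0.67 higher in ELF (0.139). Arc, which acts at synapses, was 1.16 higher in E1 (adjusted p 0.00967) and 0.40 in ELF (0.156). Dusp1, a phosphatase of MAP kinases, rose in both, by 0.81 in E1 (0.00967) and 0.45 in ELF (0.0490). Of 9 measured glucocorticoid-induced genes, limma called 0 in E1, where 4 had an unadjusted p under 0.05, beside 13.1% of all genes, and 1 in ELF, beside 2.15%, which was Ddit4, by 0.43 (adjusted p 0.0402). Sgk1 (on the array as Sgk), a kinase, was 0.54 above control in E1 (adjusted p 0.0515) and 0.21 in ELF (0.243). Fkbp5, a chaperone of the hormone's receptor, differed by 0.17 (0.645) and 0.13 (0.583), and Tsc22d3, which stands in the clock output list as well, by 0.17 (0.590) and 0.42 (0.0738). Whether the Dbp and Per1 differences go with either stimulus was not tested.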

How the data were processed

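Total RNA of the hippocampus of 15 mice was measured on 15 single-colour Agilent arrays of 45018 spots. Per the file headers, Agilent Feature Extraction 9.5.3.1 made the processed intensity of each spot, background-subtracted and detrended within the array, and 0 or 1 flags that mark outlier, saturated and well-measured spots. log2 values deposited by the authors tracked log2 of the mean intensity (r at least 0.996 on every array), with array medians of 8.77 to 9.00 and a centring that the sources used here do not state. limma and Agilent Feature Extraction are the tools named in the submitters' processing notes.

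The 1639 control spots and outlier spots were left out. log2 processed intensity was set relative to the array's 75th percentile (1441 to 2932 intensity units), and spots of a probe were averaged. Probes well above background on at least 5 arrays were kept, and the brightest of a gene name stands for it. Between 83.5% and 97.2% of spots were well above background, and the number of arrays limits the precision. Two-sided tests came from lmFit and eBayes of limma 3.58.1, run in R 4.3.3 on all 15 arrays with no covariate. p-values were adjusted over 26117 genes, or over 38457 probes in the fit of every probe. Correlations used 100000 permutations within groups, two-sided. The scripts were tested on simulated data.

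The members, gene lists and tests were chosen with earlier results of these data known. Named genes are all 10 members, 9 fixed pathway genes, any pathway gene called, 6 inducible genes, and the 5 genes most like Dbp with and without group means subtracted. The array lists 10 choroid plexus markers of 11, and Chrna3 (thalamus) and Zbtb16 (glucocorticoid) were not analysed here. Same-numbered control and E1 arrays correlated at 0.15 to 0.34 in their deviations from group means (5 of 5 over 0.1). ELF and control arrays correlated at -0.48 to 0.39 and ELF and E1 arrays at -0.32 to 0.14. By this check the numbers were taken to pair control with E1 only, although only 2 of 5 same-numbered pairs correlated best with each other. That comes from the data, since the labels do not say what a number marks. RefSeq windows of GRCm38.p6 were matched by symbol. No annotation of mm7 was used, so the exon or UTR of a probe is not given.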

Additional observations from a re-analysis of the deposited data

Results flagged for a closer look

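In 75 groups of 5 arrays (25 named genes in 3 groups), 5 arrays stood apart from the other 4 by Dixon's test at a critical value of 0.71, and chance gives about 1 in 20. For Dbp, ELF 2 read 4.15 and the other ELF arrays 3.32 to 3.39. For Arntl, ELF 2 read 0.57 and the others 0.47 to 0.50. For Fkbp5, ELF 2 read -0.45 and the others 0.08 to 0.24. For Nfil3, E1 5 read -2.08 and the other E1 arrays 0.12 to 0.29. For Tef, control 1 read 3.25 and the other control arrays 3.34 to 3.37. ELF 2 was the array in 3 of the 5, and in 2 of them it was the highest of its group.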

How the results depend on the processing

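Of the alternative values of the members' differences, 643 kept their direction and their side of the threshold, 21 changed sign, 15 gained a call and 11 lost one. The genes called in E1 against control numbered 49 (35 higher, 14 lower). They were 300 (260 higher, 40 lower) with arrays shifted by the median, 454 (377 and 77) with quantile normalization, 241 (187 and 54) with the authors' deposited values, 83 with an intensity trend, 3 (0 and 3) with the slide as a fixed block, 0 with it as a random block (591 at an unadjusted p under 0.05), and 8 to 1119 leaving out 1 array (1119 without control 5, 8 without control 2). In ELF against control they numbered 562 (389 and 173), and in the same order 1203 (718 and 485), 1700 (1057 and 643), 1586 (782 and 804), 83 (22 and 61) and 0 (1161 unadjusted) for all but the trend, with 0 when only those groups were fitted (4580 unadjusted) and 0 to 5164 leaving out 1 array (5164 without ELF 4, 2109 without control 5). In ELF against E1 they numbered 2, and 0 with the median shift, normexp, the random slide block or only those groups, 5 with quantile normalization, 11 with the authors' deposited values, 4 with the filter for all 15 arrays, 5113 (693 and 4420) with the fixed slide block and 0 to 11 leaving out 1 array.

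The replicate block gave 9 genes in E1 against control, 217 (185 and 32) in ELF against control and 0 in ELF against E1, and 0 members in E1 against control. With only the groups compared, a block added after the data were seen, it gave 3201 (2456 and 745; 12.3% of genes), 0 and 0 genes, and in E1 against control 4 members (Dbp 0.0152, Per1 0.0211, Cry1 0.0237 and Clock 0.0368 as adjusted p from limma) and 3 pathway genes. It changed no other call of a member.

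Members called in E1 against control were 2 with quantile normalization or the trend, 0 with either slide block and 0 to 3 leaving out 1 array. In ELF against control 1 was called with quantile normalization, the authors' values, the filter for all arrays or the trend, and 0 to 2 leaving out 1 array. In ELF against E1 it was 1 with the fixed slide block. Pathway genes called in E1 against control were 1 with the median shift, quantile normalization, the authors' values or the trend and 0 to 2 leaving out 1 array. In ELF against control they were 1 with the median shift, the authors' values, the filter for all arrays or the mean over probes, 2 with quantile normalization and 0 to 3 leaving out 1 array. In ELF against E1 they were 5 with the fixed slide block.

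Differences that changed sign were, for E1 against control, Per3 at -0.0051 (normexp) and -0.0372 (fixed slide block) and Cry1 at 0.0700 (fixed slide block). For ELF against control they were Cry2 at -0.00032 (median shift) and -0.0461 (mean over probes), Nr1d2 at -0.0539 (median shift), -0.0446 (authors' deposited values) and -0.0064 to 0.0803 (leaving out 1 array, the lowest without control 5), Per2 at 0.24 (mean over probes) and 0.15 (fixed slide block), Per3 at -0.35, Cry1 at 1.10 and Clock at 0.30 (fixed slide block), Cry1 at 0.12 and Clock at 0.0186 (random slide block), and Arntl at -0.0966 to 0.0017 (leaving out 1 array, the highest without control 5). For ELF against E1 they were Per3 at -0.31 (fixed slide block), -0.0893 (random slide block) and -0.0340 to 0.193 (leaving out 1 array, the lowest without ELF 5), and Nr1d1 at -0.45 (normexp) and -0.26 (fixed slide block). The normexp value of Nr1d1 lay near the -0.39 of its probe 2 in the main processing. The causes were not tested. The median shift moved the median of all genes in ELF against control from 0.10 to -0.0013. The fixed slide block rests on 1 control array beside E1 and on 2 arrays of each trial group, and could not be fitted for 6 genes.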
